A study of Mus musculus with 4 samples.

Results

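Neuropeptide signalling was examined through 31 genes of the peptide secretory pathway, chosen by name from the count table: 18 neuropeptide precursors, 6 granins, 5 processing enzymes or regulators and 2 vesicle priming factors. All 31 names were found among the 55471 rows of the table, and each had at least 1 read. The study profiled Gbx2-lineage amacrine cells, inhibitory interneurons of the retina, from C57BL6 mice at postnatal days 6 to 7. Every animal carried Gbx2-CreERT2-IRES-EGFP, an allele that places an inducible Cre recombinase and EGFP under the Gbx2 gene, together with the Ai9 reporter, which makes tdTomato after Cre has acted. Retinas were dissociated, tdTomato-labelled cells were sorted, and these were divided by EGFP fluorescence into a GFP-positive fraction (cell type 2 of the study) and a GFP-negative fraction (cell type 1). The induction of Cre is not described in the sources used here.

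The libraries analysed were replicates 2 and 3 of the GFP-positive fraction, and replicates 2 and 6 of the GFP-negative fraction. The study states 4 biological replicates, which came from 3 litters, with RNA from 750 to 2500 cells each. The 2 fractions therefore share strain, age range, driver allele and reporter, and differ in whether EGFP was detected at the sort. The animal, litter and exact day of each library are not given, so these may differ between the fractions too. The EGFP gate reads the Gbx2 allele itself, so Gbx2 serves as a check of the sort. Levels are CPM, the counts scaled to a common library size with TMM factors. Gbx2 stood at 602 and 496 CPM in GFP-positive libraries, against 28.7 and 55.5 CPM in GFP-negative libraries. Gbx2 was thus higher in both GFP-positive libraries, by 3.71 ± 0.44 on the log2 scale (SE; edgeR adjusted p = 0.0118; 0.0603 when GFP-positive replicate 3 was left out and 0.0711 when GFP-negative replicate 6 was).

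Neuropeptides are made as larger precursors that enter the regulated secretory pathway, are packed with granins into dense-core vesicles, and are cut there by prohormone convertases before the ends are trimmed by carboxypeptidase E and, for many peptides, amidated by PAM. The vesicles are then primed for calcium-triggered release by CAPS proteins. Amacrine cells are the main peptide-expressing neurons of the retina, where peptides such as VIP, somatostatin and NPY mark distinct amacrine types.

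Total counts were 44689917 and 43272827 in GFP-positive libraries, and 41153704 and 41040667 in GFP-negative libraries. A floor of 3 counts per library corresponded to 0.0656 and 0.0631 CPM in GFP-positive libraries and to 0.0717 and 0.0838 CPM in GFP-negative libraries. Of the 17 amacrine markers checked, Ptf1a, a progenitor-stage factor, was at 0 in 3 libraries and at 0.0279 CPM in GFP-negative replicate 6, and the others were detected in every library. The summed amacrine list was 4587.5 and 2673.8 CPM in GFP-positive libraries, against 8198.8 and 14897.0 CPM in GFP-negative libraries. The 16 rod photoreceptor markers, none of them at 0, summed to 10976.3 and 18020.6 CPM in GFP-positive libraries, against 9699.2 and 2639.7 CPM in GFP-negative libraries. Marker sums for Müller glia and astrocytes were 746 and 912 CPM in GFP-positive libraries, against 1710.8 and 2095.1 CPM in GFP-negative libraries, but without Dkk3 alone they were 502 and 781 CPM, against 703 and 518 CPM, and overlapped. Those for retinal ganglion cells were 249 and 126 CPM in GFP-positive libraries, against 338 and 382 CPM in GFP-negative libraries, and without Nefl alone they were 154 and 93.4 CPM, against 147 and 142 CPM, and overlapped too. Bipolar markers summed to 1387.3 and 1950.8 CPM in GFP-positive libraries, against 1171.4 and 512 CPM in GFP-negative libraries. In such bulk samples, fewer cells of a type and less RNA per cell cannot be told apart. The part that these marker differences have in the values below was not tested. A fit without the listed rod genes keeps all other RNA of rod cells, so it cannot test that part.

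The upstream sequences of several of these genes are shown first. They include the gene that passed the test (Pcsk1), the granin with the largest negative fold change (Scg2) and the somatostatin gene (Sst). Each holds a full cAMP response element (CRE) next to the start, and Chgb and Cartpt, not printed, hold one too. No match was tested against expression. Vip, also shown, is a classical cAMP-responsive gene with a CRE half-site, and Pcsk2 is shown as the sister convertase of Pcsk1. Each line is the 250 bases before the RefSeq start (GRCm38.p6), 5′ to 3′ on the gene's own strand. Capitals mark TGACG or its reverse complement CGTCA, which overlap within the full element TGACGTCA.
Pcsk1 (chr13:75089607-75089856, + strand): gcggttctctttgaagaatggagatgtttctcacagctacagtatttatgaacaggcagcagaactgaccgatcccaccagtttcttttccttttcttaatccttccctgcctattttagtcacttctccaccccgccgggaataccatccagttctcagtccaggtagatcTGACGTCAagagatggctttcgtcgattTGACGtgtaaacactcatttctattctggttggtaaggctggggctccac
Scg2 (chr1:79440027-79440276, - strand): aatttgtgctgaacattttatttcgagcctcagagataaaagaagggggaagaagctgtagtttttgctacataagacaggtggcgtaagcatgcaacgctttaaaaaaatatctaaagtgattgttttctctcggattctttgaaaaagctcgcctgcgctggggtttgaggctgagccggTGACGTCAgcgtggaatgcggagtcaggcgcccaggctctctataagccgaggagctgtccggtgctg
Sst (chr16:23890845-23891094, - strand): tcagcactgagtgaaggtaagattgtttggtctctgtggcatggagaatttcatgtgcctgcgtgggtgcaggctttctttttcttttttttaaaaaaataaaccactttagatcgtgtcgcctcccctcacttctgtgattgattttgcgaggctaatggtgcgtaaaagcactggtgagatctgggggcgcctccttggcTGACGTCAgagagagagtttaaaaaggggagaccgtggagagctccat
Vip (chr10:5638968-5639217, + strand): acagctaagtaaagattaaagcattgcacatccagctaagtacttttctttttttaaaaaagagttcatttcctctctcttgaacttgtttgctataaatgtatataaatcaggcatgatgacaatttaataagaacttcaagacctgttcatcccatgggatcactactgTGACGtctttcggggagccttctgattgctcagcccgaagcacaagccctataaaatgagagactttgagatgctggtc
Pcsk2 (chr2:143545883-143546132, + strand): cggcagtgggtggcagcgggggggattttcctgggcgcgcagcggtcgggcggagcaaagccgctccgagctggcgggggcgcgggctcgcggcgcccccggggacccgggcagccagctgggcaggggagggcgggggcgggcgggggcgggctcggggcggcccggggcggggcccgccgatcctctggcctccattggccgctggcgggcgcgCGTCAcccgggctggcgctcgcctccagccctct

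The full element lies at bases -78 to -71 from the RefSeq start in Pcsk1, with a separate half-site at -50 to -46. In Scg2 it lies at -68 to -61, and in Sst at -48 to -41. The GENCODE gene starts lie upstream of the RefSeq starts by 31 bases for Pcsk1, 94 bases for Scg2 and 114 bases for Sst, so in Scg2 and Sst the element is inside the GENCODE gene. Vip holds its half-site at -79 to -75 and Pcsk2 at -34 to -30. Windows were used for 25 of the 31 genes, as 28 windows, since some genes have more than 1 start. For the 31 genes, windows on chromosome 18, where Grp lies, were left out. The set of all windows kept that chromosome and held each distinct sequence once. TGACGTCA, searched on both strands, was in 5 of the 28, those of Cartpt, Chgb, Pcsk1, Scg2 and Sst, and in 1.56% of all 32536 promoter windows. The half-site TGACG, which every full element also contains, was in 16 of the 28 and in 17.9% of all windows. TATAAA was in 4 of the 28 (Adcyap1, Nppc, Pomc and Vip) and in 12.3% of all windows, and the homeobox core TAATTA was in 1 of the 28 (Pomc) and in 4.84% of all windows. TGANTCA, the AP-1 core, was in 3 of the 28 and in 6.73% of all windows. These matches describe letters and were not tested against expression. Genes with a full element included Cartpt, whose groups overlapped. The windows of Vip and Gal, with log2 fold changes of -5.75 and -3.87, GFP-positive over GFP-negative, held no full element.

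**Figure D1:**
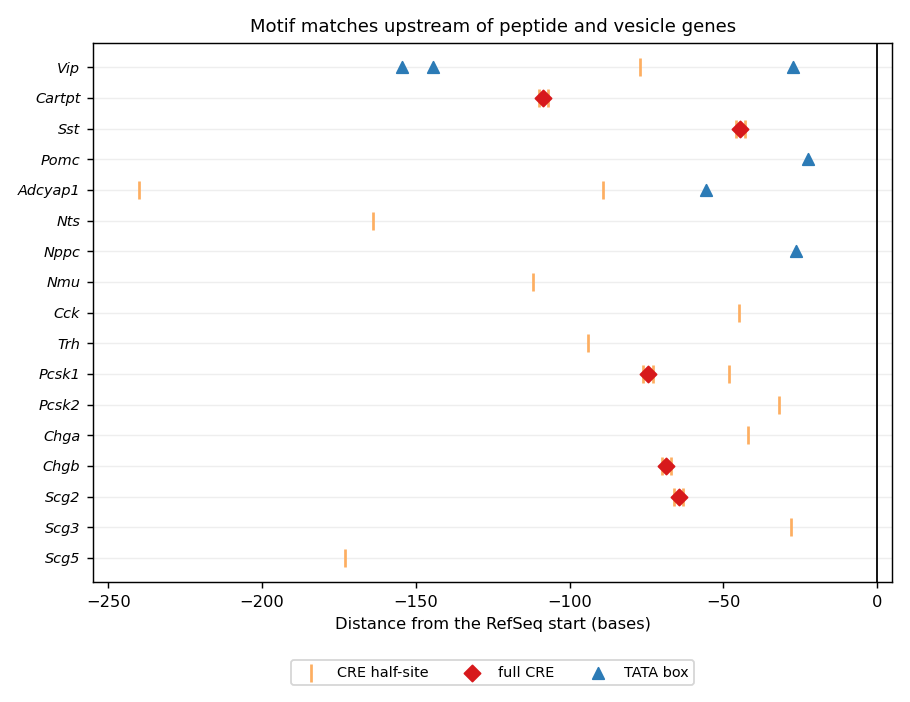
Position of each TGACG half-site (orange bar), full TGACGTCA element (red diamond) and TATAAA match (blue triangle) in the 250 bases before the RefSeq start, for the genes with at least 1 match; the horizontal axis is the distance from that start in bases. The full elements of Pcsk1, Chgb, Scg2 and Sst sit within the last 78 bases before the start, and that of Cartpt lies farther out.

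GFP-positive cells were compared with GFP-negative cells to ask how the 2 subtypes differ in their peptide pathway. Of the 31 genes, 28 had enough reads to be tested and 1 passed an edgeR adjusted p of 0.05: the convertase gene Pcsk1, which was lower in GFP-positive libraries. That count was 0 when GFP-negative replicate 6, or either GFP-positive library, was left out, and 3 (Pcsk1, Scg2 and Vip) without GFP-negative replicate 2. Among all 17940 tested genes the same rule called 198, or 1.1%, of which 42 (0.234%) were higher and 156 (0.87%) were lower in GFP-positive libraries. The background count moved with the libraries too, with 108 calls (replicate 2) and 5 calls (replicate 3) when a GFP-positive library was left out, and 336 (replicate 2) and 1 (replicate 6) when a GFP-negative one was. The CPM values of GFP-positive and GFP-negative libraries did not overlap for 19 of the 31 genes, 4 higher and 15 lower in GFP-positive libraries. The same held for 43.8% of all tested genes, 22.5% higher and 21.3% lower. The 19 include Nmu (higher) and Cck (lower), which were not tested, whereas that share covers tested genes only. The unadjusted p was under 0.05 for 11 of the 28, 10 of them with a negative and 1 with a positive fold change. It was under 0.05 for 2257 of all tested genes (12.6%), 1317 with a negative and 940 with a positive fold change. DESeq2 called 6 of the 28 and 4.59% of all genes it tested, and limma-voom called 0 of the 28 and 0.73% of all tested genes. With 2 libraries a group, an exact permutation test on 1 gene cannot go below 0.333, so the calls rest on the spread shared across genes. The design text plans for each animal to give a sample of either fraction, but the labels do not say whether the 2 libraries numbered 2 came from 1 animal. The fit treats all 4 libraries as independent, and its p-values measure the spread between them.

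**Figure D2:**
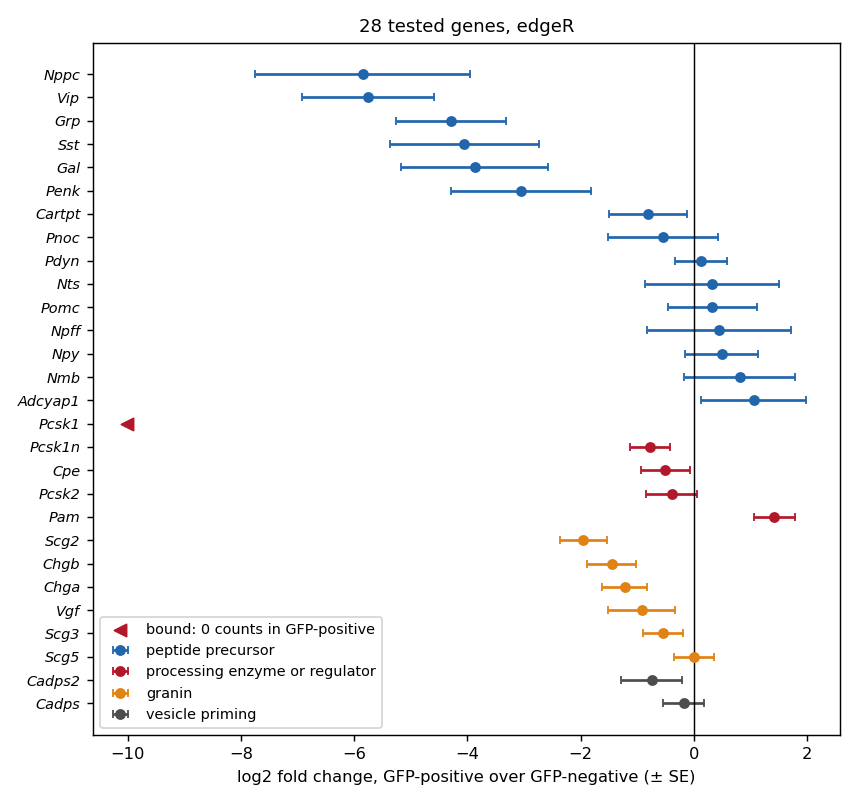
Fitted log2 fold change, GFP-positive over GFP-negative, with its standard error, for the 28 tested genes, coloured by role. The left-pointing triangle is Pcsk1, drawn at the bound set by 3 counts over the GFP-positive group, since no read was counted there. Precursors spread over both sides of 0, while 5 of 6 granins lie below it.

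Among the 18 precursors, Npy and Pdyn had the highest mean CPM per kilobase of exonic length in both fractions, and for both the difference between fractions was smaller than the spread between libraries. Pdyn, which encodes the dynorphin opioid peptides (ENSMUSG00000027400, GRCm38 chr2:129686565-129699844), stood at 80.1 and 49.4 CPM in GFP-positive libraries, against 33.5 and 85.7 CPM in GFP-negative libraries. Its groups overlapped, and the 2 GFP-negative libraries differed more from each other than the fractions did (log2 fold change 0.12 ± 0.46 SE; edgeR adjusted p = 0.948). Npy, which encodes neuropeptide Y, stood at 24.0 and 7.26 CPM in GFP-positive libraries, against 15.8 and 6.28 CPM in GFP-negative libraries, with replicate 2 above the other library in both fractions (0.49 ± 0.65 SE; edgeR adjusted p = 0.818). Per kilobase, Npy averaged 27.6 CPM in GFP-positive and 19.5 CPM in GFP-negative libraries, Pdyn 22.4 and 20.6 CPM, and Cartpt 4.03 and 7.01 CPM. The next places differed by fraction: Pomc (1.43 CPM per kilobase) followed Cartpt in GFP-positive libraries, and Sst (5.84), Vip (4.17) and Grp (3.99) followed it in GFP-negative libraries. Cartpt, the source of CART peptides, stood at 4.22 and 6.08 CPM in GFP-positive libraries, against 14.4 and 3.49 CPM in GFP-negative libraries, which enclose both GFP-positive values (-0.81 ± 0.69 SE; edgeR adjusted p = 0.686).

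**Figure D3:**
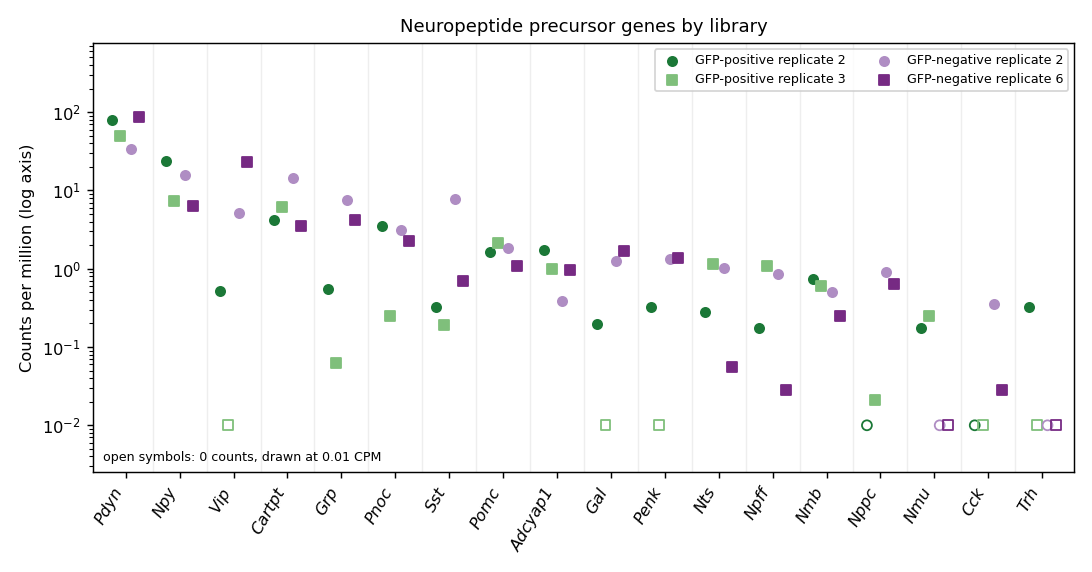
CPM of the 18 precursor genes in each library on a log axis; green symbols are GFP-positive replicates 2 and 3, purple symbols GFP-negative replicates 2 and 6, and open symbols are libraries with 0 counts, drawn at 0.01 CPM. Pdyn and Npy are the 2 precursors with a mean above 10 CPM, and Vip, Grp, Sst, Gal, Penk, Nppc and Cck show both GFP-negative symbols above both GFP-positive ones.

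A group of 7 low-level precursors had both GFP-negative libraries above both GFP-positive ones, as did 21.3% of all tested genes. Cck is among the 7 but had too few reads to be tested. None of the 7 passed the edgeR threshold. Vip, which encodes vasoactive intestinal peptide (ENSMUSG00000019772, GRCm38 chr10:5639218-5647617), had 24 and 0 counts in GFP-positive libraries, or 0.525 and 0 CPM, against 216 and 830 counts in GFP-negative libraries, or 5.16 and 23.2 CPM. Its fitted log2 fold change was -5.75 ± 1.17 (SE) at an edgeR adjusted p of 0.0617, which was 0.0197 when GFP-negative replicate 2 was left out, 0.49 when GFP-negative replicate 6 was, 0.112 when GFP-positive replicate 2 was and 0.341 when GFP-positive replicate 3 was. DESeq2 gave Vip an adjusted p of 0.272 and limma-voom 0.396. Grp, which encodes gastrin-releasing peptide, had 25 and 3 counts in GFP-positive libraries (0.547 and 0.0631 CPM), against 319 and 149 counts in GFP-negative libraries (7.63 and 4.16 CPM), a log2 fold change of -4.29 ± 0.97 (SE; edgeR adjusted p = 0.0887). The second GFP-positive value for Grp is the floor itself. Sst, which encodes somatostatin, stood at 0.328 and 0.189 CPM in GFP-positive libraries, against 7.72 and 0.698 CPM in GFP-negative libraries, where replicate 2 carried most of the reads (-4.05 ± 1.31 SE; edgeR adjusted p = 0.249).

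Gal and Penk were near the detection limit in GFP-positive libraries. Gal, the galanin precursor, stood at 0.197 and 0 CPM in GFP-positive libraries, against 1.24 and 1.68 CPM in GFP-negative libraries (-3.87 ± 1.30 SE; edgeR adjusted p = 0.254). Penk, the enkephalin precursor, stood at 0.328 and 0 CPM in GFP-positive libraries, against 1.34 and 1.37 CPM in GFP-negative libraries (-3.05 ± 1.24 SE; edgeR adjusted p = 0.344). Both genes had close values in the 2 GFP-negative libraries and no read in GFP-positive replicate 3. Nppc, which encodes C-type natriuretic peptide, had 0 and 1 counts in GFP-positive libraries, against 38 and 23 counts in GFP-negative libraries, a pooled level 73.3-fold lower in GFP-positive libraries with a 95% counting interval of 12.7 to 2941.4 (edgeR adjusted p = 0.264). Cck, which encodes cholecystokinin, had too few reads for the test: 0 and 0 counts in GFP-positive libraries, against 15 and 1 counts in GFP-negative libraries, at least 6.41-fold lower in GFP-positive libraries with a floor of 3 counts over the group. Of the 18 precursors, 15 were tested, and edgeR called 0 of them, against 1.1% of all tested genes. The unadjusted p was under 0.05 for 6, all with a negative fold change. Of all 17940 tested genes, 12.6% had such a p in either direction, and 1317 had it with a negative fold change. DESeq2 called 2 (Grp and Sst), against 4.59% of all genes it tested, and limma-voom called 0, against 0.73%.

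The remaining precursors were scarce and showed no common direction. Adcyap1, which encodes PACAP, stood at 1.73 and 0.988 CPM in GFP-positive libraries, against 0.382 and 0.95 CPM in GFP-negative libraries, so the groups were just apart (1.06 ± 0.93 SE; edgeR adjusted p = 0.697). Nmb, which encodes neuromedin B, stood at 0.744 and 0.61 CPM in GFP-positive libraries, against 0.502 and 0.251 CPM in GFP-negative libraries, with exons that overlap Sec11a on the same strand (edgeR adjusted p = 0.797). Nmu, which encodes neuromedin U, had 8 and 12 counts in GFP-positive libraries, against 0 and 0 counts in GFP-negative libraries, at least 5.55-fold higher in GFP-positive libraries with a floor of 3 counts over the group, and was too low to be tested. These were the 3 precursors, of 18, whose GFP-positive values both lay above the GFP-negative ones, which held for 22.5% of all tested genes. Pomc, the source of melanocortins and β-endorphin, stood at 1.62 and 2.15 CPM in GFP-positive libraries, against 1.86 and 1.09 CPM in GFP-negative libraries (edgeR adjusted p = 0.907). Pnoc, the nociceptin precursor, stood at 3.52 and 0.252 CPM in GFP-positive libraries, against 3.16 and 2.26 CPM in GFP-negative libraries (edgeR adjusted p = 0.871). For both of these the fractions overlapped. Nts, the neurotensin precursor, was high in 1 library of each fraction, at 0.284 and 1.14 CPM in GFP-positive libraries and 1.03 and 0.0559 CPM in GFP-negative libraries. Npff, the neuropeptide FF precursor, followed the same libraries, at 0.175 and 1.09 CPM in GFP-positive libraries and 0.861 and 0.0279 CPM in GFP-negative libraries. Trh, which encodes thyrotropin-releasing hormone, was seen in a single library, with 15 and 0 counts in GFP-positive libraries and 0 and 0 counts in GFP-negative libraries.

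The composition of the precursor pool differed between libraries of 1 fraction as well as between fractions. All 18 precursors together summed to 119 and 69.5 CPM in GFP-positive libraries, against 95.9 and 132 CPM in GFP-negative libraries, so the groups overlapped. Pdyn took 67.4% (exact binomial 95% interval 66.1 to 68.6) and 71.1% (69.5 to 72.6) of precursor reads in GFP-positive libraries, against 34.9% (33.4 to 36.4) and 65.0% (63.6 to 66.4) in GFP-negative libraries. Vip took 0.442% and 0% (0 of 3303 reads, exact upper limit 0.112%) of precursor reads in GFP-positive libraries, against 5.39% and 17.6% in GFP-negative libraries. Npy took 20.2% and 10.4% in GFP-positive libraries, against 16.5% and 4.76% in GFP-negative libraries. The 2 GFP-negative libraries stood apart from each other, with Cartpt at 15.0%, Sst at 8.05% and Grp at 7.96% in replicate 2, and at 2.65%, 0.529% and 3.15% in replicate 6. Cartpt took 3.55% and 8.75% in GFP-positive libraries, Sst 0.276% and 0.272%, and Grp 0.46% and 0.0908%. These shares are of reads and favour long transcripts. When each gene was first divided by its exonic length, Npy took 53.1% and 32.0% of the precursor signal in GFP-positive libraries, against 36.3% and 18.4% in GFP-negative libraries. On that scale Pdyn took 34.6% and 42.7% in GFP-positive libraries, against 15.0% and 49.3% in GFP-negative libraries, so the order of Npy and Pdyn depended on the library. The intervals cover counting error only, and amplified reads are not independent molecules.

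**Figure D4:**
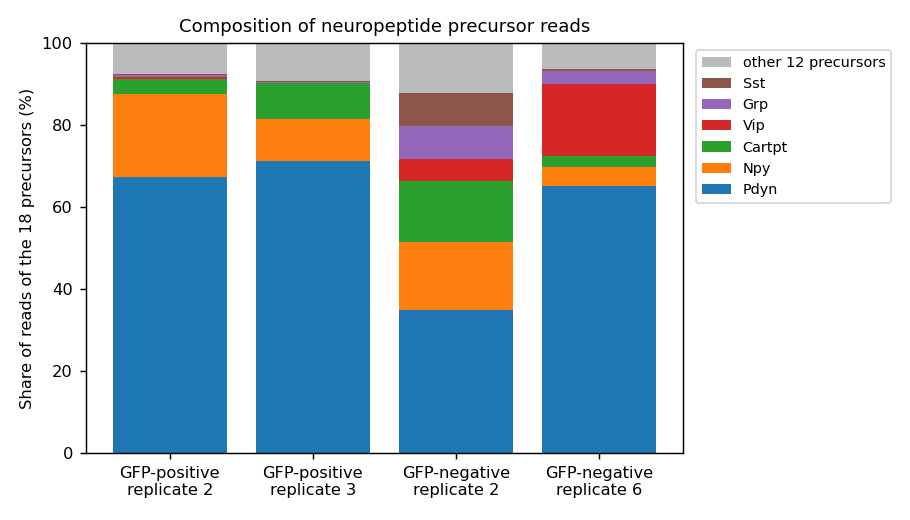
Share of the reads of the 18 precursor genes taken by Pdyn, Npy, Cartpt, Vip, Grp, Sst and the other 12, in percent, 1 bar per library. Pdyn takes 67.4 and 71.1% in GFP-positive libraries and 34.9 and 65.0% in GFP-negative libraries, and Vip, Grp and Sst are visible mainly in GFP-negative bars.

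Among the enzymes that turn precursors into peptides, Pcsk1 fell to no reads at all in GFP-positive libraries. Pcsk1 encodes prohormone convertase 1/3, which makes early cuts in many precursors (ENSMUSG00000021587, GRCm38 chr13:75089826-75134861). It had 0 and 0 counts in GFP-positive libraries, against 645 and 1934 counts in GFP-negative libraries, which correspond to 15.4 and 54.0 CPM (mean 34.7 ± 27.3, SD, n = 2). With a floor of 3 counts over the group, Pcsk1 was at least 1032.8-fold lower in GFP-positive libraries (edgeR adjusted p = 0.0154). The call held without GFP-negative replicate 2 (adjusted p = 0.00906) and without mitochondrial, hemoglobin and rod genes (0.0167). It was lost when GFP-negative replicate 6 was left out (0.132), when either GFP-positive library was left out (0.066 without replicate 2, 0.119 without replicate 3), and with limma-voom (0.241).

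The sister convertase Pcsk2, which makes later cuts, was abundant in both fractions. It stood at 264 and 133 CPM in GFP-positive libraries, against 173 and 347 CPM in GFP-negative libraries, and the groups overlapped (log2 fold change -0.39 ± 0.45 SE; edgeR adjusted p = 0.784). Of the reads of both convertases, Pcsk1 took 0 of 12068 and 0 of 6313 in GFP-positive libraries, with exact upper limits of 0.0306% and 0.0584%. In GFP-negative libraries its share was 8.17% (exact 95% interval 7.57 to 8.79) and 13.5% (12.9 to 14.0). Per kilobase of exonic length Pcsk2 averaged 25.1 CPM in GFP-positive libraries and 32.9 CPM in GFP-negative libraries, where Pcsk1 averaged 6.19 CPM. Part of the Pcsk2 exons is overlapped on the opposite strand by Pcsk2os1 and Pcsk2os2.

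The later steps of processing were represented in both fractions. Cpe, the carboxypeptidase that trims the cut ends, stood at 1330.9 and 1099.7 CPM in GFP-positive libraries, against 1283.9 and 2143.2 CPM in GFP-negative libraries, with overlapping groups (-0.50 ± 0.43 SE; edgeR adjusted p = 0.693). Per kilobase it had the highest mean of the 5 processing genes in both fractions, at 466 CPM in GFP-positive and 657 CPM in GFP-negative libraries. Pcsk1n, which encodes proSAAS, a binding partner and inhibitor of the Pcsk1 product, stood at 206 and 222 CPM in GFP-positive libraries, against 295 and 436 CPM in GFP-negative libraries (-0.77 ± 0.35 SE; edgeR adjusted p = 0.404). Its groups were apart, with the GFP-positive values lower. Pam, the amidating enzyme, was the processing gene with a positive fold change and is described because of its values: 35.4 and 32.4 CPM in GFP-positive libraries, against 11.8 and 13.6 CPM in GFP-negative libraries (means 33.9 ± 2.14 and 12.7 ± 1.25, SD, n = 2 each). The replicates were close in both fractions and the ratio was 2.67-fold (log2 fold change 1.42 ± 0.36 SE), but the edgeR adjusted p was 0.145, and DESeq2 called it (adjusted p = 0.011). Exons of Pam overlap B230216N24Rik on the same strand, a row with 684 and 368 counts of its own in GFP-positive libraries and 319 and 331 in GFP-negative libraries.

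**Figure D5:**
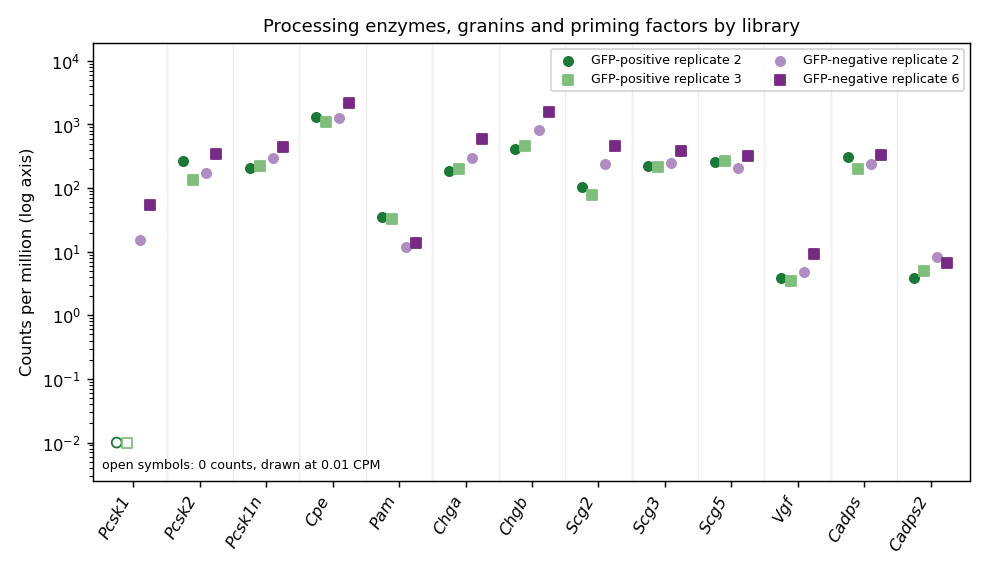
CPM of the 13 processing, granin and priming genes in each library on a log axis, with green symbols for GFP-positive and purple for GFP-negative libraries; open symbols are 0 counts, drawn at 0.01 CPM. Pcsk1 has no reads in either GFP-positive library, Pam has both GFP-positive symbols above, and 12 of the 13 genes are higher in GFP-negative replicate 6 than in replicate 2.

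Granins, the acidic cargo proteins of the dense-core vesicle, were plentiful in both fractions, apart from Vgf. For 5 of the 6, all but Scg5, both GFP-positive values lay below both GFP-negative ones, which held for 21.3% of all tested genes. Scg2, which encodes secretogranin II, the precursor of secretoneurin (ENSMUSG00000050711, GRCm38 chr1:79434669-79440120), stood at 103 and 78.0 CPM in GFP-positive libraries, against 235 and 464 CPM in GFP-negative libraries. Its log2 fold change was -1.95 ± 0.41 (SE) at an edgeR adjusted p of 0.0758, which was 0.0278 when GFP-negative replicate 2 was left out, 0.481 when GFP-negative replicate 6 was, 0.17 when GFP-positive replicate 2 was and 0.504 when GFP-positive replicate 3 was. Chgb, chromogranin B, stood at 407 and 456 CPM in GFP-positive libraries, against 808 and 1554.3 CPM in GFP-negative libraries (-1.45 ± 0.43 SE; edgeR adjusted p = 0.214). Chga, chromogranin A, stood at 184 and 202 CPM in GFP-positive libraries, against 302 and 597 CPM in GFP-negative libraries (-1.22 ± 0.40 SE; edgeR adjusted p = 0.26). For all 3 the GFP-positive libraries were close together, and GFP-negative replicate 6 was the highest library.

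Scg3 and Scg5 differed less. Scg3, a sorting partner of chromogranin A at the vesicle membrane, stood at 226 and 211 CPM in GFP-positive libraries, against 250 and 386 CPM in GFP-negative libraries (-0.54 ± 0.35 SE; edgeR adjusted p = 0.578). Scg5, which encodes 7B2, the chaperone of the Pcsk2 product, stood at 261 and 271 CPM in GFP-positive libraries, against 208 and 323 CPM in GFP-negative libraries, which enclose them (0.0 ± 0.35 SE; edgeR adjusted p = 0.999). Vgf, a granin-like precursor, was the scarcest granin per kilobase, at 3.89 and 3.45 CPM in GFP-positive libraries, against 4.88 and 9.1 CPM in GFP-negative libraries (edgeR adjusted p = 0.579). Per kilobase, Scg5 was first in GFP-positive libraries, at a mean of 170 CPM, followed by Chgb (157), Scg3 (79.8), Chga (70.0), Scg2 (36.0) and Vgf (1.23). In GFP-negative libraries Chgb was first, at 431 CPM per kilobase, followed by Scg5 (169), Chga (163), Scg2 (139), Scg3 (116) and Vgf (2.35). The 6 granins summed to 1185.1 and 1221.7 CPM in GFP-positive libraries, against 1807.6 and 3333.7 CPM in GFP-negative libraries, and their median log2 fold change was -1.07, where the median of all tested genes was 0.0385. edgeR called 0 of the 6, with 3 at an unadjusted p under 0.05 (12.6% over all genes), while DESeq2 called 2, Chgb and Scg2 (4.59% over all genes), and limma-voom called 0 (0.73%). The amacrine marker sum given above was likewise lower in both GFP-positive libraries, and its part in the granin values was not tested.

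Vesicle priming is served by the CAPS proteins, of which Cadps was the main transcript. Cadps stood at 306 and 197 CPM in GFP-positive libraries, against 242 and 326 CPM in GFP-negative libraries, with overlapping groups (-0.18 ± 0.36 SE; edgeR adjusted p = 0.89). Cadps2 stood at 3.92 and 4.94 CPM in GFP-positive libraries, against 8.15 and 6.59 CPM in GFP-negative libraries (-0.74 ± 0.54 SE; edgeR adjusted p = 0.624). Per kilobase the means were 16.7 and 18.8 CPM for Cadps, and 0.463 and 0.771 CPM for Cadps2, in GFP-positive and GFP-negative libraries. Neither passed edgeR, DESeq2 or limma-voom, and 0 of the 2 had an unadjusted p under 0.05.

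GFP-negative replicate 6 was the higher GFP-negative library for most of the machinery. Of the 13 processing, granin and priming genes, 12 were higher in GFP-negative replicate 6 than in replicate 2, and Cadps2 was the exception. The share of all genes that were higher in replicate 6 was not computed, so this count has no background to be read against. In GFP-positive libraries, 7 of the 13 were higher in replicate 2 than in replicate 3. The ratio of the higher to the lower library ran from 1.04 to 1.99 in the GFP-positive fraction and from 1.15 to 3.5 in the GFP-negative fraction. Rod marker sums were lowest, and amacrine marker sums highest, in GFP-negative replicate 6, and the part of either in these ratios was not tested.

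Related genes outside the 31 were read from lists of further precursors, receptors, vesicle genes and degrading enzymes. Of 53 further precursor genes, 14 were tested, and 1 rose and 2 fell in GFP-positive libraries, with a median log2 fold change of -1.44 over the 14, where that of all tested genes was 0.0385 and 1.1% of them were called. Tac1, which encodes substance P and neurokinin A, stood at 1114.8 and 1100.5 CPM in GFP-positive libraries, against 99.7 and 222 CPM in GFP-negative libraries (log2 fold change 2.79 ± 0.47 SE; edgeR adjusted p = 0.0342). The gene of corticotropin-releasing hormone, Crh, stood at 18.2 and 12.2 CPM in GFP-positive libraries, against 199 and 665 CPM in GFP-negative libraries (-4.82 ± 0.62 SE; edgeR adjusted p = 0.0131). Pthlh, which encodes parathyroid hormone-related protein, stood at 0 and 0.715 CPM in GFP-positive libraries, against 9.94 and 21.4 CPM in GFP-negative libraries (-5.41 ± 0.94 SE; edgeR adjusted p = 0.0352). In each case the groups were well apart. Tac1, Crh and Pthlh lost the call without GFP-negative replicate 6 and without either GFP-positive library, with adjusted p from 0.0711 to 0.288, and all 3 lost it with the older quasi-likelihood method. Tac1 also lost it without GFP-negative replicate 2 (0.0517), and Pthlh with DESeq2 (0.306) and limma-voom (0.271).

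Of 41 receptors for the peptides of the 18 precursors, 28 were tested and 3 fell in GFP-positive libraries, against 0.87% of all tested genes. The median log2 fold change of the 28 was -0.43, where that of all tested genes was 0.0385. Mc4r, a melanocortin receptor, had 0 and 0 counts in GFP-positive libraries, against 1141 and 2404 counts in GFP-negative libraries, at least 1419.6-fold lower in GFP-positive libraries with a floor of 3 counts over the group (edgeR adjusted p = 0.0107). Mc3r, the other central melanocortin receptor, stood at 9.86 and 6.94 CPM in GFP-positive libraries, against 38.3 and 106 CPM in GFP-negative libraries (-3.10 ± 0.52 SE; edgeR adjusted p = 0.0342). Npy5r, a neuropeptide Y receptor, stood at 0 and 0.105 CPM in GFP-positive libraries, against 3.32 and 7.07 CPM in GFP-negative libraries (-6.51 ± 1.29 SE; edgeR adjusted p = 0.0496). All 3 lost the call when GFP-negative replicate 6 was left out (Mc4r 0.0919, Mc3r 0.283, Npy5r 0.411), when GFP-positive replicate 3 was (0.0603, 0.294 and 0.251 in the same order) and with limma-voom (0.14, 0.0874 and 0.291). Mc3r (0.124) and Npy5r (0.14) also lost it without GFP-positive replicate 2, and Npy5r did without the mitochondrial, hemoglobin and rod genes (0.053). The precursors that supply these receptors, Pomc and Npy, overlapped between the fractions.

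Of 69 further processing and dense-core vesicle genes, 68 were tested and 1 fell in GFP-positive libraries, against 0.87% of all tested genes. The median log2 fold change of the 68 was -0.31, where that of all tested genes was 0.0385. Baiap3, a Munc13-family protein of dense-core vesicle traffic, stood at 20.4 and 8.29 CPM in GFP-positive libraries, against 76.2 and 105 CPM in GFP-negative libraries (-2.66 ± 0.46 SE; edgeR adjusted p = 0.0361). It lost the call when GFP-negative replicate 6 (0.283) or GFP-positive replicate 3 (0.168) was left out and with the older quasi-likelihood method (0.117). Of 23 peptide-degrading enzymes and relatives, 18 were tested and edgeR called 0. The unadjusted p was under 0.05 for 2 (11.1%), near the 12.6% of all tested genes. DESeq2 called 2 (Dpp6 and Enpep), against 4.59% of all genes it tested, and limma-voom called 0, against 0.73%. The highest mean CPM among them, not corrected for length, belonged to Dpp6, a dipeptidyl peptidase relative without enzyme activity, at 159 and 85.8 CPM in GFP-positive libraries, against 225 and 451 CPM in GFP-negative libraries. Prepl, a prolyl endopeptidase-like protein, followed at 221 and 111 CPM in GFP-positive libraries, against 227 and 323 CPM in GFP-negative libraries. The median log2 fold change of this list was -0.19.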

How the data were processed

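Bulk RNA-seq libraries (SMART-Seq Ultra Low Input cDNA) were analysed from the raw gene counts that the authors deposited. Trimmomatic, STAR 2.7.3a, MultiQC, limma and the GRCm38 build are named in the submitters' processing notes, without roles. The counting tool, the annotation and the strand setting were not stated (not given in the sources used here), so reads of genes with overlapping exons (Penk, Nmb, Nmu, Npff, Pcsk2, Pcsk1n and Pam) may be shared with their partners. A further deposited table, which held the same counts times a constant per library, was not used. Coordinates and exonic lengths came from GENCODE on GRCm38, and promoter windows from RefSeq on GRCm38.p6.

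Genes with a count of at least 10 in enough libraries (filterByExpr) were kept, 17940 of 27925 with any count. Fold changes, GFP-positive over GFP-negative, came from edgeR 4.0.16 (TMM, robust quasi-likelihood, R 4.3.3) with Benjamini-Hochberg adjustment and 2 residual degrees of freedom; the biological coefficient of variation was 55.4%. The quasi-likelihood method of edgeR 4 was settled after the counts of calls under it and under the older method had been seen, and the older method is given as an alternative. DESeq2 1.42.0 and limma-voom 3.58.1 were alternatives. The procedure was also run on counts simulated from the means and spread of these data, with libraries drawn independently. That run cannot show how far the calls depend on a single library. Every pair of libraries differed by more than sampling noise: chi-square per degree of freedom was 130.9 for the 2 libraries numbered 2, the closest pair, 146.2 within the GFP-positive fraction and 176.9 within the GFP-negative fraction.

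The 31 genes and the lists were chosen with earlier results of these data known. Full values were set to be given for called genes, the 3 genes of each role with the highest mean CPM, and tested precursors at least 2 away from 0 on the log2 scale; Pam, Scg2 and the other members were added after their values were seen. From each further list, called genes were named, or the 2 with the highest mean CPM.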

Additional observations from a re-analysis of the deposited data

How the results depend on the processing

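Pcsk1 had 0 reads in both GFP-positive libraries, and its call was lost in 4 alternatives, limma-voom and the fits that left out GFP-negative replicate 6 or either GFP-positive library. Calls among all genes numbered 198, against 859 with DESeq2, 131 with limma-voom, 106 without a filter on low counts and 48 with the older quasi-likelihood method, an alternative added after the data were seen, and 1 to 336 without 1 library (1 when GFP-negative replicate 6 was left out, 5 when GFP-positive replicate 3 was). Calls among the 31 genes numbered 1, against 6 with DESeq2, 0 with limma-voom, 2 with RLE scaling, 3 with upper-quartile scaling, 2 with the stricter filter and 0 to 3 without 1 library. Further precursors numbered 3 calls, against 5 with DESeq2, 0 with the older method, 1 without a filter and 0 to 2 without 1 library. Receptors numbered 3, against 5 with DESeq2, 0 with limma-voom, 1 with the older method, 1 without a filter and 0 to 4 without 1 library. Further processing and vesicle genes numbered 1, against 5 with DESeq2, 0 with the older method, 0 without a filter, 3 with RLE scaling, 3 without composition scaling, 4 with upper-quartile scaling, 4 with the stricter filter and 0 to 3 without 1 library. Degrading enzymes numbered 0, against 2 with DESeq2 and 0 to 0 without 1 library. The cause of these shifts was not tested.

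Of the log2 fold changes of the 28 tested genes over all alternatives, 318 kept direction and side of the threshold, 11 passed it newly, 4 (all Pcsk1) lost it and 19 changed sign. Scg5, at 0.0, took -0.03 with DESeq2, -0.03 without a filter and -0.02 with RLE scaling. The other sign changes came from leaving out 1 library, over ranges of -0.63 to 1.25 for Npy, -0.46 to 0.95 for Pdyn, -3.43 to 0.37 for Pnoc, -1.0 to 3.56 for Nts, -1.48 to 0.50 for Cartpt, -1.41 to 4.33 for Npff, -0.34 to 0.36 for Scg5, -0.99 to 0.20 for Pcsk2 and -0.55 to 0.10 for Cadps. No paired analysis was possible because the fractions share only replicate number 2, and a replicate block would leave no residual degrees of freedom.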
